A study of Homo sapiens with 14 samples.

Results

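The genes described here sense DNA and RNA in the cytosol or pass that signal on to interferon, and they were followed across a dilution series of 2 human cell lines. They are 10 of the 58440 gene models counted in each library, chosen by symbol with their values in these data already known. IFI16, CGAS and TREX1 meet DNA, RIGI and IFIH1 meet RNA, STING1 and MAVS are the adaptors of the DNA and RNA arms, TBK1 is the shared kinase, and IRF3 and IRF7 are the transcription factors at the end of both arms. Double-stranded DNA in the cytosol is bound by CGAS, which makes the cyclic dinucleotide cGAMP, and cGAMP activates STING1 on the endoplasmic reticulum. Double-stranded RNA is bound by RIGI and IFIH1, which assemble MAVS on mitochondria. Either adaptor recruits TBK1, which phosphorylates IRF3 and IRF7, and these switch on type I interferon genes. Interferon in turn raises a set of genes that includes several of the sensors. HEK-293T cells are widely used to rebuild these pathways by transfection, and IFI16 is known to be expressed in lymphoid cells.

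The HEK-293T line came from human embryonic kidney and carries the SV40 large T antigen, and the Jurkat line came from a human T cell leukaemia. Suspensions of both lines were combined at 100%, 80%, 60%, 50%, 40%, 20% and 0% HEK cells, with the rest Jurkat, and 2 libraries were deposited for each of the 7 conditions. These were technical replicates of untreated cells, so the spread between them holds no culture-to-culture variation. HEK cells grew in DMEM and Jurkat cells in RPMI, so line and medium cannot be told apart. Messenger RNA was captured with oligo(dT) beads, ERCC spike-in RNA was added to it, and cDNA was primed from the poly(A) tail with barcoded primers and pooled before a strand-specific library was made. Here the libraries are named by the HEK percentage and by a number, 1 or 2, that follows their order of deposition.

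The libraries held 4468822 to 28303668 gene counts, the fewest in the pure Jurkat pair, and spike-ins made up 0.674% to 7.65% of all counts. Levels are given in CPM, gene counts scaled to the library total without the spike-ins. In Jurkat library 1, the shallowest, 3 counts equal 0.671 CPM. The 10 T cell markers summed to 2432 and 2858 CPM in the pure Jurkat libraries and to 5.82 and 2.84 CPM in the pure HEK libraries, where CD5 was at 0. The 10 HEK markers summed to 1818 and 1873 CPM in the pure HEK libraries and to 42.2 and 24.3 CPM in the Jurkat libraries. Marker sums for myeloid, B, fibroblast and endothelial cells lay between 0.178 and 46.7 CPM over all 14 libraries. The deposited file names carry 2 stems whose meaning is not given in the sources used here. Both pure HEK libraries carry one stem and both pure Jurkat libraries the other, so in the pure libraries stem and cell line cannot be told apart.

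Promoter sequences are shown for IFI16 and IFIH1, which differed together between paired libraries, and for PYHIN1, which lies next to IFI16 on chromosome 1 and belongs to the same family. They span 250 bases before and 50 bases after the annotated RefSeq start in GRCh38.p14, at chr1:159009657-159009956 on the plus strand for IFI16, chr2:162318635-162318934 on the minus strand for IFIH1 and chr1:158931302-158931601 on the plus strand for PYHIN1. Capitals mark matches on either strand to GAAANNGAA, the core of the element bound by interferon-activated factors.
IFI16 promoter: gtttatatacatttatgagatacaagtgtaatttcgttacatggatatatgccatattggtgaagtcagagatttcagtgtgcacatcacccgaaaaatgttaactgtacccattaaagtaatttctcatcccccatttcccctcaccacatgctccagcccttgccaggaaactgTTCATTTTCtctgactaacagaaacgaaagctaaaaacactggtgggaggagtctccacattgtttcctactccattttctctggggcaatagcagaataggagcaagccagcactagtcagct
IFIH1 promoter: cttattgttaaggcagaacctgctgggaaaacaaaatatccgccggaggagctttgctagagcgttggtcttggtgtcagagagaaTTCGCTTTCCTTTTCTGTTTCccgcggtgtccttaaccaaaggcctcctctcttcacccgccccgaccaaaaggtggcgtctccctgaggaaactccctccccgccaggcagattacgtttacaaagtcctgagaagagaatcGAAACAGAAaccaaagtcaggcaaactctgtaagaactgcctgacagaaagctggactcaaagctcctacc
PYHIN1 promoter: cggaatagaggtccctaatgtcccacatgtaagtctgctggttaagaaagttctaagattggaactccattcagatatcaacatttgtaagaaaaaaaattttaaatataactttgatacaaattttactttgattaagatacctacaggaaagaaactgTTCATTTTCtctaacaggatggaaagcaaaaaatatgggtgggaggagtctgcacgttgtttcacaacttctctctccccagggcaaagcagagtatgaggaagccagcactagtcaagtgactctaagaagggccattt
The IFI16 and PYHIN1 windows each held 1 match, at positions -74 and -90 from the start, with the same letters in capitals. The IFIH1 window held 4 matches, at -164, -158, -152 and -21, the first 3 of which overlap. Among 35116 promoters of this length, 8.11% held at least 1 match. Of the 10 members, 6 had an entry in the promoter table, and IFI16 had a second window, further upstream, with no match. The windows of MAVS, RIGI, TBK1 and TREX1 had none either, which says only that these letters are not in those windows. TTCNNNGAA, the core of the element bound by interferon gamma-activated factors, was found in 7.66% of all promoters and in none of the windows of the 6 members. The IFI16 and IFIH1 windows printed here held 3 and 12 CpG dinucleotides, against a median of 14 over all promoters. The TREX1 window also held 3, and those of RIGI, MAVS and TBK1 held 27, 34 and 35. CGAS, STING1, IRF3 and IRF7 have no entry.

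IFI16, a DNA-binding PYHIN protein that acts in the nucleus and cytosol, was nearly absent from HEK cells and was the most abundant of the 10 genes in Jurkat cells. Its gene lies at chr1:158999968-159055155 on the plus strand (GRCh38, GENCODE release 44; ENSG00000163565.18). The pure HEK libraries held 2 and 5 IFI16 counts, or 0.212 and 0.330 CPM. The pure Jurkat libraries held 2361 and 8097 counts, or 528 and 1305 CPM. Pooled over both libraries of a line, the Jurkat level was 3445 times the HEK level, with an exact 95% interval of 1671 to 8570 that covers counting error only. The HEK level was 0.0295% of the Jurkat level, while the summed T cell markers in HEK libraries were 0.164% of theirs. Within a line, fewer cells with the transcript and less of it per cell cannot be told apart in bulk libraries.

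Every mixed library lay between the pure lines for IFI16. The 80% HEK libraries held 30.6 and 25.4 CPM, the 60% libraries 37.3 and 36.9 CPM, and the 50% libraries 102 and 43.4 CPM. The 40% HEK libraries held 187 and 76.9 CPM, and the 20% libraries 179 and 144 CPM. The level was thus mostly higher with more Jurkat cells, but 40% HEK library 1 was above both 20% HEK libraries, and the 50% HEK library 1 was above 40% HEK library 2. The panels of CPM by mixture show the wide gap between the pure HEK libraries and the first dilution.

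**Figure D1:**
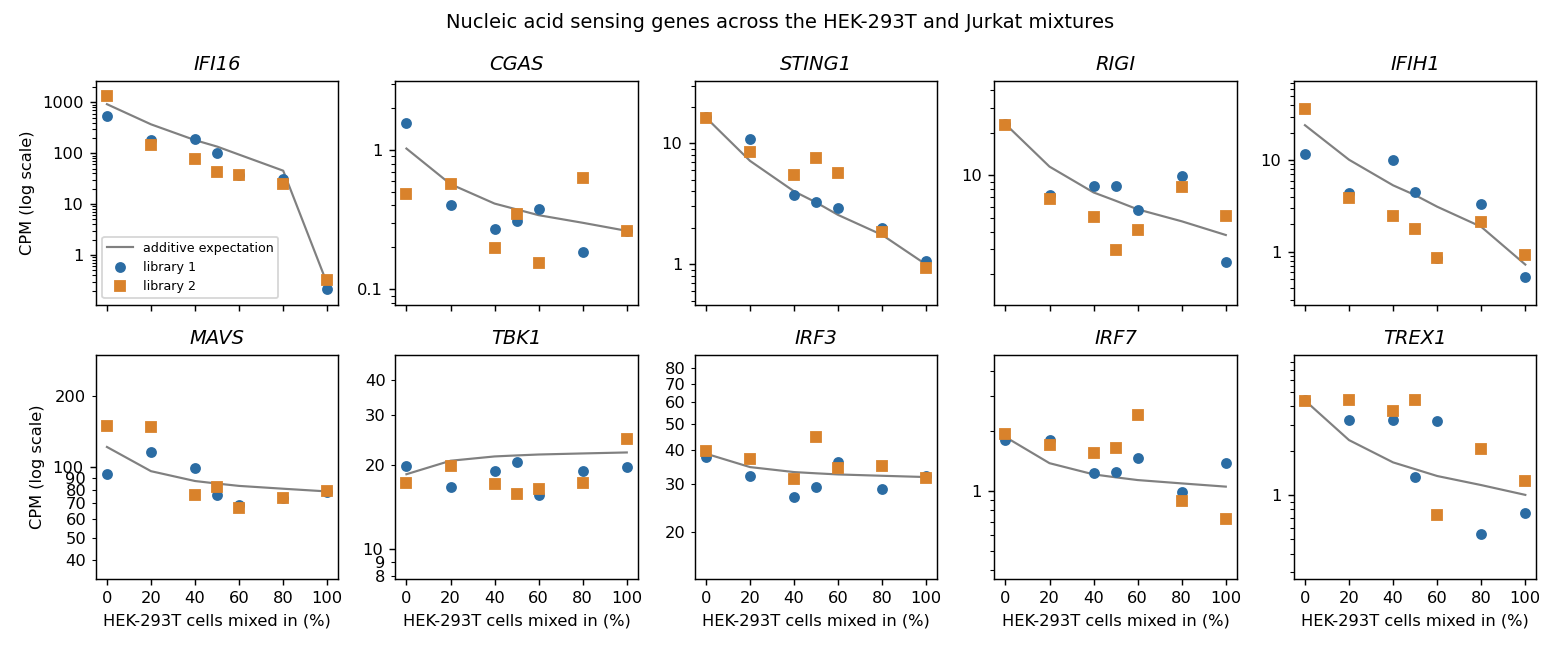
Level of each of the 10 genes in CPM (log axis) against the percentage of HEK-293T cells, with library 1 of each condition as circles, library 2 as squares and the additive expectation from the pure libraries as a grey line. IFI16 was at 528 and 1305 CPM at 0% HEK and at 0.212 and 0.330 CPM at 100% HEK, while TBK1 lay between 15.6 and 24.6 CPM in all 14 libraries.

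The Jurkat libraries differed from each other for IFI16 by 2.47 times, with library 2 higher. Of the 8126 genes compared between these libraries, 441 (5.43%) differed at least as much on the log2(CPM + 1) scale. The libraries of the 50% and 40% HEK conditions differed by 2.35 and 2.43 times, there with library 1 higher. In the 80%, 60% and 20% conditions the ratio of library 1 to library 2 was 1.21, 1.01 and 1.24. The size of a difference between replicates therefore varied with the condition, and the pure Jurkat pair was not the only pair with a wide gap.

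IFIH1 (MDA5), the sensor of long double-stranded RNA, went with IFI16 in direction in all 6 pairs that contained Jurkat cells. Its Jurkat levels were 11.6 and 36.6 CPM, a 3.14-fold difference, from 52 and 227 counts. In the 40% HEK pair it stood at 10.0 and 2.48 CPM and in the 50% pair at 4.45 and 1.77 CPM, so in both pairs library 1 was again the higher. At 80%, 60% and 20% HEK its ratios of library 1 to library 2 were 1.56, 1.01 and 1.15. PYHIN1, chosen for this comparison after its values were seen, had 13 and 56 counts in the Jurkat libraries, 19 and 1 at 40% HEK and 12 and 2 at 50% HEK, and followed IFI16 in 5 of the 6 pairs. RIGI, the sensor of short RNA with a 5′ triphosphate, followed it in 5 of 6 as well but differed by only 1.02 times between the Jurkat libraries, at 23.3 and 22.9 CPM. STING1 followed it in 2 of 6 and stood at 16.3 CPM in both Jurkat libraries.

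**Figure D2:**
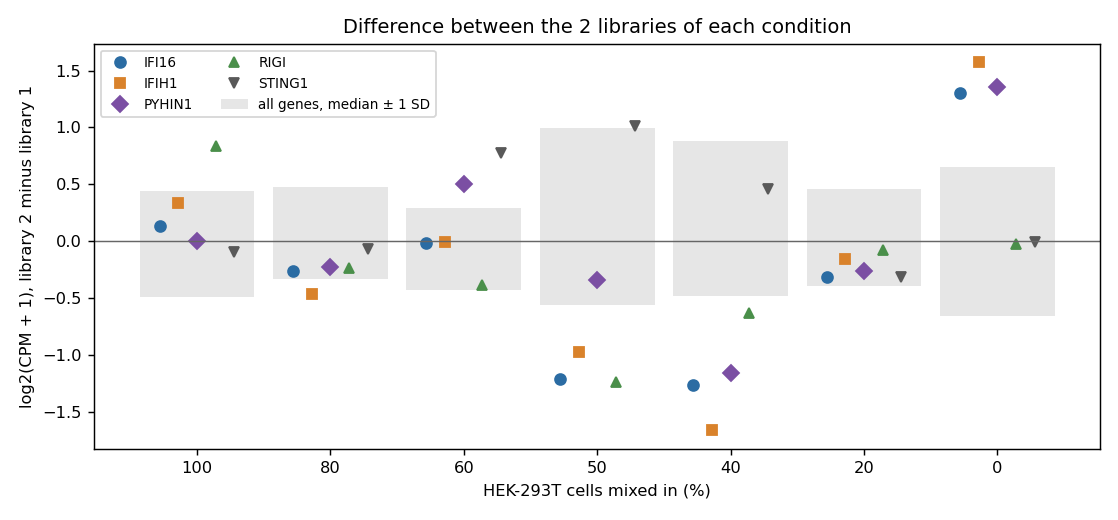
Difference in log2(CPM + 1) between library 2 and library 1 of each condition for IFI16, IFIH1, PYHIN1, RIGI and STING1, with grey bars for the median ± 1 SD over all genes compared. IFI16 and IFIH1 lie below the bars at 50% and 40% HEK and above them at 0% HEK, whereas STING1 is near 0 at 0% HEK.

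Base composition moved with these differences in some pairs and not in others. IFI16, IFIH1 and PYHIN1 transcripts were 40.8%, 40.5% and 39.8% GC, the 13.0, 12.0 and 8.63 percentiles of 11467 genes. In the 50% HEK pair the median difference between library 2 and library 1 was -0.15 (log2) in the third of genes with the lowest GC and 0.65 in the third with the highest, with a Spearman correlation of 0.44 across genes. In the 40% HEK pair these medians were 0.00034 and 0.41, with a correlation of 0.29. In the Jurkat pair they were 0.0014 and -0.0073, with a correlation of -0.016. At 100%, 80%, 60% and 20% HEK the correlations were -0.079, 0.22, -0.0043 and 0.033. Genes are not independent replicates, and the part of base composition in the differences was not tested. The interferon-induced genes as a list did not move with IFI16 between the Jurkat libraries: among 20 with at least 10 CPM, 8 were higher and 12 lower in library 2, with a median log2 difference of -0.17 and a range of -0.66 to 0.69.

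The mixed libraries gave a second view of the Jurkat level of IFI16, first by an extrapolation that used none of its counts in the pure libraries. The HEK share of the RNA was estimated in each mixed library from 883 HEK and 461 Jurkat marker genes, none of them a member. With 80% HEK cells the HEK part of the RNA was 95.3% and 94.9%, with 60% it was 90.0% and 89.6%, and with 50% it was 84.5% and 86.1%. The 40% libraries gave 80.0% and 80.8%, the 20% libraries 59.2% and 60.4%. The HEK share of RNA thus exceeded the HEK share of cells in every mixed library. The cell shares were set by mixing, and the pure HEK libraries held 147 and 97.3 gene counts per spike-in count, against 12.1 and 12.3 in the pure Jurkat libraries. Extrapolated to pure Jurkat RNA, the 10 mixed libraries gave 418 ± 68.2 CPM of IFI16 (jackknife SE), below the 528 CPM of Jurkat library 1 and the 1305 CPM of library 2. With the HEK share taken from the mixing percentage and the spike-ins it was 556 CPM, above library 1 and below library 2. Leaving out each mixed library in turn gave 396 to 485 CPM. The 6 mixed libraries of the Jurkat file-name stem alone gave 359 CPM and the 4 of the other stem 192 CPM. Each fit also gave a HEK level of IFI16, which was 13.8 ± 13.6 CPM with all 10 mixed libraries. It was 44.5 CPM with the Jurkat stem and 19.7 CPM with the other, against a mean of 0.271 CPM in the pure HEK libraries. The Jurkat levels of these fits go with HEK levels above the measured one. Library by library, with the mean IFI16 level of the pure HEK libraries subtracted as their HEK part, the implied Jurkat level ran from 311 to 931 CPM, below Jurkat library 1 in 7 of 10 and below Jurkat library 2 in 10 of 10, with medians of 419 and 432 CPM in the libraries of the Jurkat stem and of the other.

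**Figure D3:**
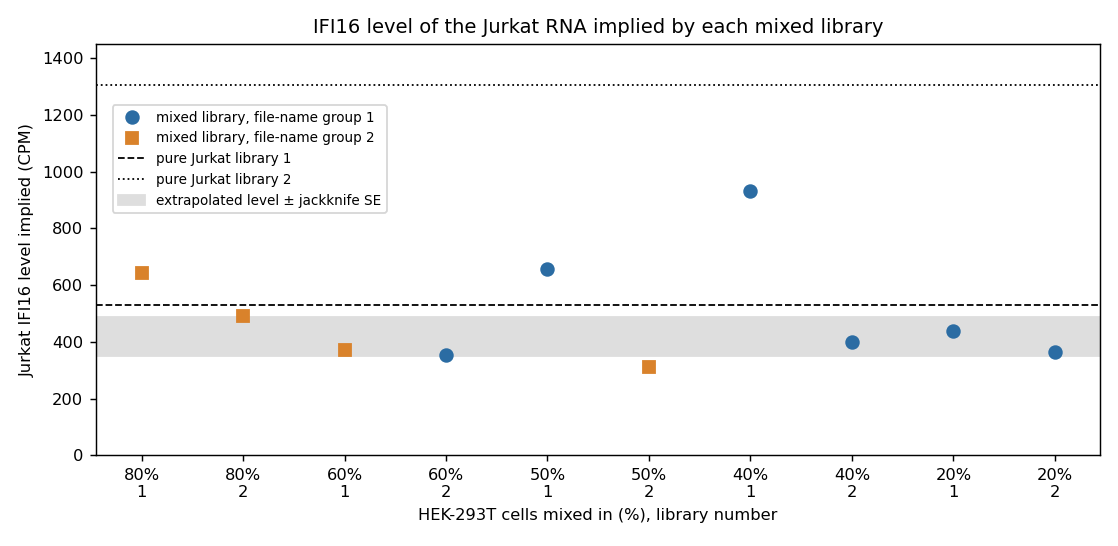
IFI16 level (CPM) of the Jurkat RNA that each of the 10 mixed libraries implies after its HEK part is subtracted, with circles and squares for the file-name stems, lines for the pure Jurkat libraries and a band for the extrapolated level ± SE. The highest value, 931 CPM, is 40% HEK library 1, and all 10 lie under the 1305 CPM of Jurkat library 2.

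The level in the mixed libraries was also tested against additive mixing, the level that the mean pure profiles and the HEK share of RNA predict. With edgeR's quasi-likelihood test over 18189 genes, 8 genes (0.0440%) were below the additive level and 0 (0%) above it at an adjusted p under 0.05, and none of the 9 members tested was among them. At an unadjusted p under 0.05 there were 951 below and 337 above, and DESeq2 called 50 below and 4 above. IFI16 was below its additive level in 9 of 10 mixed libraries, with a log2 difference of -0.89 ± 0.32 (SE) and an adjusted p of 0.50 by edgeR, and counted among the 951. That difference depended on Jurkat library 2 and on the estimate of the HEK share. Without Jurkat library 2 the log2 difference was -0.11, and without Jurkat library 1 it was -1.42. With the HEK share from the mixing percentage and the spike-ins it was -0.17 (SE 0.36, adjusted p = 0.98 by edgeR). With the share by least squares over all genes it was 5.22 (SE 2.37, adjusted p = 0.76). With only the mixed libraries of the Jurkat file-name stem and all pure libraries, the difference was -0.82 (SE 0.36, adjusted p = 0.67 by edgeR). With the mixed libraries of the other stem it was -1.02 (SE 0.33, adjusted p = 0.59). Both fits kept the pure libraries of both stems, so the stem was not held fixed. The expected level uses the pure libraries by which IFI16 came to be listed, and the test takes no account of the error in that level.

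CGAS and the DNase TREX1 were scarce. CGAS, the enzyme that makes cGAMP (chr6:73413515-73452297, minus strand), had 6 counts over both pure HEK libraries and 10 over both Jurkat libraries, and no library exceeded 1.57 CPM. Its counting ratio of Jurkat to HEK was 3.84, with a 95% interval of 1.27 to 12.9. That interval covers counting error only. CGAS stood at 0.261 and 0.264 CPM in the HEK libraries and at 1.57 and 0.484 CPM in the Jurkat libraries, the latter from 7 and 3 counts. The size of a difference between the lines could not be resolved at this depth. It was not tested, since the gene did not pass the filter on low counts in either model. TREX1, the exonuclease that removes cytosolic DNA (chr3:48465811-48467645, plus strand), was at 0.760 and 1.24 CPM in the HEK libraries and 4.40 and 4.33 CPM in the Jurkat libraries. In mixed libraries it ran from 0.542 to 4.43 CPM, with pairs such as 3.18 and 0.734 CPM at 60% HEK. Its log2 difference from additive mixing was 0.69 ± 0.42 (SE, edgeR, adjusted p = 0.80), with 3 of 10 mixed libraries below the additive level. The mixed libraries gave a Jurkat level of 8.03 ± 2.65 CPM (jackknife SE), and 3.79 CPM with the HEK share by least squares over all genes. TREX1 lies within the model of ATRIP on the same strand, so some of its reads may have been shared between these genes.

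RIGI (chr9:32455302-32526208, minus strand) was at 2.43 and 5.15 CPM in the pure HEK libraries and at 23.3 and 22.9 CPM in the Jurkat libraries, with no overlap. All 10 mixed libraries lay below both Jurkat libraries, at 2.99 to 9.89 CPM, and the order did not follow the mixture: the 80% HEK libraries held 9.89 and 8.25 CPM, more than the 7.27 and 6.83 CPM of the 20% HEK libraries. Extrapolated from the mixed libraries, the Jurkat level of RIGI was 6.35 ± 3.36 CPM and the HEK level 6.76 ± 1.43 CPM (jackknife SE), against pure means of 23.1 and 3.79 CPM. That Jurkat level moved with the settings, to 12.3 CPM with the HEK share by least squares over all genes (HEK level 5.69 CPM), 9.76 CPM with the mixed libraries of the Jurkat stem alone (HEK level 5.69 CPM) and 0 with those of the other, so the order of both levels is not resolved. Its log2 difference from additive mixing was 0.0084 ± 0.35 (edgeR, adjusted p = 1.0), -0.29 ± 0.26 with the mixed libraries of the Jurkat stem and 0.38 ± 0.39 with those of the other. IFIH1 (chr2:162267074-162318684, minus strand) was at 0.529 and 0.924 CPM in the HEK libraries, from 5 and 14 counts, and its mixed libraries gave a Jurkat level of 9.33 ± 3.44 CPM, within its SE of the 11.6 CPM of Jurkat library 1 and below the 36.6 CPM of library 2. That level was 14.8 CPM with the least-squares share, 6.75 CPM with the Jurkat stem alone and 0 with the other. Its additive difference was -0.37 ± 0.51 (adjusted p = 0.91), and it turned to 0.43 without Jurkat library 2.

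Of the adaptors, STING1 was mostly higher with more Jurkat cells, and MAVS varied little in libraries with 50% HEK cells or more. STING1 (chr5:139475533-139482935, minus strand) was at 1.06 and 0.924 CPM in pure HEK cells and 16.3 CPM in both Jurkat libraries. It stood at 1.98 and 1.84 CPM at 80% HEK, 2.92 and 5.72 CPM at 60% and 3.25 and 7.56 CPM at 50%. It stood at 3.72 and 5.48 CPM at 40% HEK, both below 50% HEK library 2, and at 10.9 and 8.53 CPM at 20%. The mixed libraries gave a Jurkat level of 21.5 ± 3.62 CPM (16.1 CPM with the least-squares share, 29.0 CPM with the spike-in share, and 21.0 and 44.9 CPM with the Jurkat stem and the other alone), and 8 of 10 were above the additive level, by 0.49 ± 0.26 on the log2 scale (edgeR, adjusted p = 0.76). MAVS (chr20:3846799-3876123, plus strand) was at 78.3 and 78.8 CPM in the HEK libraries and 93.6 and 149 CPM in the Jurkat libraries. The 80%, 60% and 50% HEK libraries held 66.8 to 82.2 CPM, the 40% libraries 99.0 and 75.9 CPM and the 20% libraries 115 and 148 CPM. Its extrapolated Jurkat level was 235 ± 56.6 CPM, above both pure Jurkat libraries. So were the 220 CPM with the least-squares share, 304 CPM with the spike-in share and 261 CPM with the Jurkat stem alone. Leaving out single mixed libraries gave 188 to 270 CPM. With the 4 mixed libraries of the other stem alone the level of MAVS was 137 CPM, between the pure libraries. Its additive difference was 0.012 ± 0.18 (adjusted p = 1.0).

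In CPM, TBK1 and IRF3, the kinase and the main factor it activates, had similar levels in both lines, and IRF7 was low in both. Scaled by spike-in counts, TBK1 and IRF3 were higher in HEK, by 3.55 ± 0.57 and 3.04 ± 0.55 on the log2 scale (SE). TBK1 (chr12:64452090-64502114, plus strand) was at 19.6 and 24.6 CPM in HEK cells, 19.7 and 17.2 CPM in Jurkat cells and 15.6 to 20.4 CPM in mixed libraries. All 10 mixed libraries lay below its additive level, with a log2 difference of -0.28 ± 0.13 and an adjusted p of 0.67 by edgeR. At an unadjusted p of 0.041, TBK1 counted among the 951 genes below the additive level, as IFI16 did. The difference was -0.13 without HEK library 2 and -0.41 without HEK library 1. IRF3 (chr19:49659569-49665875, minus strand) was at 32.2 and 31.6 CPM in HEK cells, 37.9 and 39.9 CPM in Jurkat cells and 26.9 to 44.8 CPM in mixed libraries. It overlaps BCL2L12 on the other strand. The libraries were made strand-specific, but whether the counting used strand is not given in the sources used here, which also bears on IFI16 (PYDC5) and CGAS (DDX43). RIGI and TBK1 each overlap an unnamed gene model on their own strand. IRF7 (chr11:612553-615983, minus strand), which interferon itself induces, was scarce throughout, at 1.38 and 0.726 CPM in HEK cells, 1.79 and 1.93 CPM in Jurkat cells and 0.886 to 2.40 CPM in mixed libraries. The additive difference was 0.021 ± 0.14 for IRF3 and 0.33 ± 0.28 for IRF7, with adjusted p of 0.99 and 0.86 by edgeR.

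On a per-length scale the order of the 10 genes differed between the lines. In TPM without the spike-ins, Jurkat cells held 956 of IFI16 (546 and 1365), followed by IRF3 at 25.9 and MAVS at 11.1. TBK1, TREX1, IFIH1, RIGI and STING1 followed at 8.03, 7.82, 7.21, 5.74 and 5.53 TPM, where MAVS and TBK1 overlapped, TREX1 lay within the range of TBK1, and the range of IFIH1 (3.61 to 10.8) overlapped all of these. IRF7 at 2.70 and CGAS at 0.349 TPM came last and did not overlap the rest. In HEK cells the order of TPM began with IRF3 at 24.4, TBK1 at 12.8, MAVS at 6.66 and TREX1 at 1.68, and these did not overlap. RIGI at 0.931 and IRF7 at 0.712 overlapped, STING1 at 0.339 overlapped IRF7, and IFI16 at 0.258 overlapped IFIH1 at 0.217. CGAS was lowest at 0.0809 TPM. The transcript length that the authors' tool assigned to IFI16 ran from 960 to 1713 bases between libraries, which moves TPM but not CPM. Since cDNA was primed from the poly(A) tail, whether reads scaled with transcript length was not tested.

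The difference between the pure lines is given for the members as a description, since their levels were known when they were listed. The log2 difference, HEK minus Jurkat, was -11.82 ± 0.77 (SE) for IFI16, -5.21 ± 0.72 for IFIH1, -4.26 ± 0.27 for STING1, -2.79 ± 0.39 for RIGI and -2.31 ± 0.41 for TREX1. It was -1.10 ± 0.50 for IRF7, -0.86 ± 0.29 for MAVS, -0.51 ± 0.20 for IRF3 and 0.038 ± 0.23 for TBK1. The first 5 of these passed an adjusted p under 0.05 in edgeR's test and 0 members passed it in the HEK direction (also 0 at an unadjusted p under 0.05 and 0 by DESeq2), beside 19.0% and 24.2% of 15794 genes tested. The Jurkat count was 4 without either HEK library and 6 without Jurkat library 1, and with spike-in scaling 4 members were called higher in HEK and 2 in Jurkat. When spike-in totals replaced gene totals, 14616 of all 15794 genes tested were called higher in HEK and 509 higher in Jurkat. The median over all genes moved from 0.067 to 3.61. On that scale RIGI, TREX1, IRF7, MAVS and IRF3 had the opposite sign, at 0.63 ± 0.58 (SE), 1.11 ± 0.69, 2.45 ± 0.73, 2.69 ± 0.53 and 3.04 ± 0.55. IFI16, IFIH1, STING1 and TBK1 kept theirs, at -8.44 ± 0.76, -1.80 ± 0.68, -0.76 ± 0.67 and 3.55 ± 0.57. RIGI, TREX1 and STING1 were close to 0 for their SE, so their sign on that scale is not resolved.

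**Figure D4:**
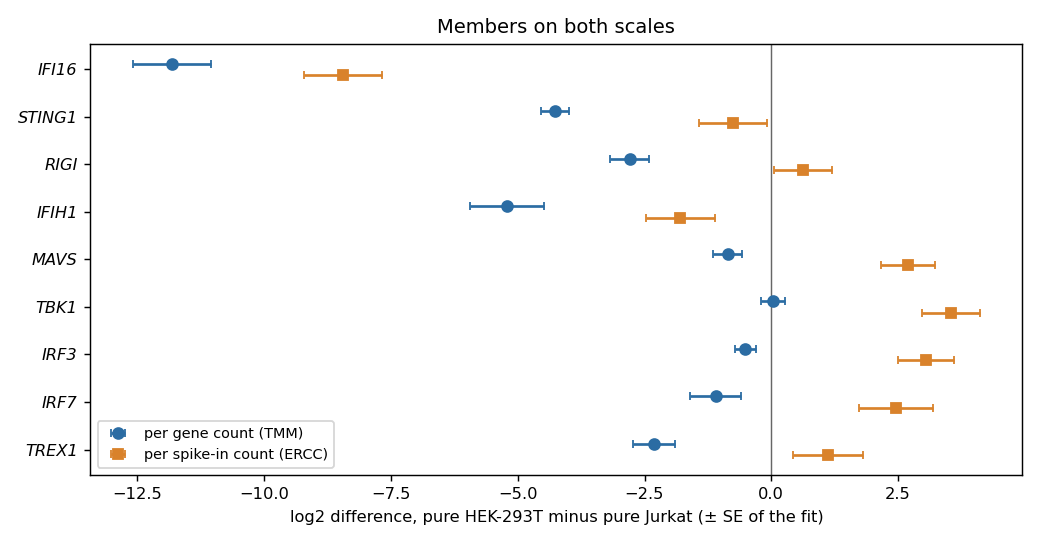
Log2 difference between pure HEK-293T and pure Jurkat libraries (± SE of the fit) for the 9 genes that passed the filter, scaled by gene counts (circles) and by spike-in counts (squares). Every gene lies further right on the spike-in scale, and RIGI, MAVS, IRF3, IRF7 and TREX1 cross 0.

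Across the 14 libraries the genes whose log2(CPM + 1) tracked IFI16 most closely among 11467 were ETS1, a lymphoid transcription factor (Pearson r = 0.99), and PTPRC, the leukocyte antigen CD45 (r = 0.99). Among the closest to STING1 were CD5, a T cell surface receptor, and the interferon-induced ISG15 (r = 0.98 for each), and for IFIH1 they were the DNA methyltransferase DNMT3A, WDR76 and KLF13 (r = 0.97, 0.96 and 0.96). For RIGI they were SCAF11, TOPORS and RFX7 (r = 0.96, 0.95 and 0.94). For TBK1 the closest gene reached r = 0.77. The libraries share the mixture as their main axis, so these values describe the series and carry no test.

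The wider pathway was described with 156 further genes in 6 lists, of which 129 were tested between the pure lines. In edgeR's test 56 of these were higher in Jurkat and 14 higher in HEK, and their median log2 difference was -0.72, beside 19.0% and 24.2% and a median of 0.067 for all 15794 genes. The HEK count rested on both pure HEK libraries: it was 3 without HEK library 1 and 4 without HEK library 2, while the Jurkat count was 40 without either. With spike-in scaling 94 were higher in HEK and 12 in Jurkat, beside 14616 and 509 of all 15794 genes. The directions below are therefore relative to total mRNA.

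Interferon-induced genes held the most Jurkat calls of the 6 lists: 24 of 32 tested were higher in Jurkat and 0 in HEK by edgeR (1 at an unadjusted p under 0.05, 0 by DESeq2, 2 of 36 with no filter on low counts), with a median log2 difference of -3.26. The Jurkat count was 19 to 23 when single libraries were left out, and on the spike-in scale 9 were higher in Jurkat and 12 in HEK. On the spike-in scale 509 of all 15794 genes tested were called higher in Jurkat and 14616 higher in HEK. Scaled by gene counts with all libraries, 75.0% of this list was called higher in Jurkat and 0% in HEK, beside 19.0% and 24.2% of all genes. GBP1, an interferon-induced GTPase, was at 0 and 0.317 CPM in HEK and at 182 and 143 CPM in Jurkat cells (log2 difference -9.80 ± 0.68, adjusted p = 0.00084). SAMD9L, an antiviral growth regulator, was at 0 in both HEK libraries and at 11.6 and 14.8 CPM in Jurkat cells, at least 51.4-fold higher against a floor of 3 counts per library. CMPK2, a mitochondrial nucleotide kinase, was at 0 in HEK and at 9.62 and 11.0 CPM in Jurkat cells, at least 39.9-fold higher. Among the 9 type I, II and III interferon genes listed, no library held more than 2 counts.

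Among other sensors 7 of 19 tested (36.8%) were higher in Jurkat and 1 (5.26%) in HEK, beside 19.0% and 24.2% of all genes. PYHIN1 was at 0 in the HEK libraries and at 2.91 and 9.00 CPM in the Jurkat libraries, at least 23.1-fold higher, and could not be tested without Jurkat library 2 for lack of counts. OAS3, a synthetase that activates RNase L, was at 0.635 and 0.462 CPM in HEK and 11.0 and 9.03 CPM in Jurkat cells (adjusted p = 0.0011), and DHX58, a regulator of RIGI and IFIH1, at 0.106 and 0.792 against 6.04 and 7.74 CPM (adjusted p = 0.0087). DHX33, a helicase, was the gene higher in HEK, at 169 and 149 against 73.4 and 67.4 CPM (adjusted p = 0.017), and lost that call without either HEK library (adjusted p = 0.12 and 0.082). AIM2 and MNDA, the remaining PYHIN genes, and TLR9 were at 0 in all 14 libraries.

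Of the adaptors, kinases and transcription factors, 10 of 24 were higher in Jurkat and 1 in HEK, and the Jurkat count was 5 without either HEK library. With all libraries, 41.7% of this list was called higher in Jurkat and 4.17% in HEK, beside 19.0% and 24.2% of all genes. MYD88, the adaptor of Toll-like receptors, was at 2.43 and 1.98 CPM in HEK and 12.5 and 12.4 CPM in Jurkat cells (log2 difference -2.73 ± 0.27, adjusted p = 0.0019). IRF1 and IRF2, relatives of IRF3 that bind similar elements, were both higher in Jurkat but differed between its libraries in opposite directions. IRF1 stood at 148 and 77.3 CPM there and IRF2 at 35.8 and 94.5 CPM, against 6.45 and 4.24 CPM on average in HEK cells (adjusted p = 0.0016 and 0.0090). TBKBP1, which binds TBK1, was higher in HEK, at 6.98 and 4.49 against 0.448 and 0.645 CPM (adjusted p = 0.0078, and 0.073 without HEK library 1).

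Regulators and clearance genes had calls in both directions. Of 29 regulators tested, 9 (31.0%) were higher in Jurkat and 6 (20.7%) in HEK, the latter 1 without either HEK library, beside 19.0% and 24.2% of all genes. NLRC5, an activator of class I antigen presentation genes, was at 1.59 and 1.12 CPM in HEK and 48.1 and 43.7 CPM in Jurkat cells (adjusted p = 0.00064). TRIM56, a ubiquitin ligase, was at 34.5 and 37.0 against 342 and 403 CPM (adjusted p = 0.00073), and TNFAIP3 (A20), which dampens NF-kB, at 5.08 and 5.67 against 52.6 and 34.5 CPM (adjusted p = 0.0017). RNF135 (Riplet), the ubiquitin ligase that activates RIGI, went the other way, at 23.0 and 14.4 CPM in HEK and 1.34 and 0.645 CPM in Jurkat cells (adjusted p = 0.0031). UNC93B1 and TOMM70 were also higher in HEK, with log2 differences of 1.64 ± 0.30 and 1.41 ± 0.43 (adjusted p = 0.011 and 0.047), and both lost the call without either HEK library.

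Of 17 clearance and cGAMP transport genes 4 (23.5%) were higher in each line, beside 19.0% of all genes in Jurkat and 24.2% in HEK. SAMHD1, which hydrolyses deoxynucleotides, was at 77.6 and 95.5 CPM in HEK and 2.01 and 1.84 CPM in Jurkat cells (log2 difference 5.29 ± 0.29, adjusted p = 0.00064). ENPP1, which degrades extracellular cGAMP, was at 39.0 and 39.8 against 1.57 and 1.93 CPM (adjusted p = 0.00073), and RNASET2, a lysosomal RNase, at 21.8 and 19.5 against 8.50 and 7.41 CPM (adjusted p = 0.013). RNASEH2B, a subunit of the RNase that removes ribonucleotides from DNA, was higher in Jurkat, at 819 and 787 against 98.0 and 127 CPM (adjusted p = 0.0011). ADAR, which edits double-stranded RNA, was at 149 and 381 CPM in the Jurkat libraries against 109 and 100.0 CPM in HEK cells (adjusted p = 0.046), and ABCC1, a cGAMP exporter, at 12.3 and 19.2 against 6.35 and 8.31 CPM (adjusted p = 0.025). The Jurkat count of this list was 1 without either HEK library or without Jurkat library 2, and the HEK count was 2 without either HEK library. ADAR and ABCC1 kept their call only without Jurkat library 1, while RNASET2 lost its call without either HEK library.

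Most receptor chains were present in both lines, and IFNLR1, a chain of the lambda receptor, was at 4.76 and 2.37 CPM in HEK and at 0 and 0.322 CPM (0 and 2 counts) in Jurkat cells. Of 8 interferon and receptor genes tested, IFNAR2 and IL10RB were higher in Jurkat and IFNLR1 and IFNGR2 higher in HEK, and none of these calls held when either HEK library was left out. With all libraries, 25.0% of the list was called higher in Jurkat and 25.0% in HEK, beside 19.0% and 24.2% of all genes. IFNAR2, a type I interferon receptor chain, was at 12.1 and 12.2 CPM in HEK and 38.7 and 21.8 CPM in Jurkat cells (adjusted p = 0.017), and IL10RB, the other chain of the lambda receptor, at 32.3 and 30.5 against 49.0 and 56.0 CPM (adjusted p = 0.017). IFNGR2, a chain of the gamma receptor, was at 39.1 and 36.3 against 14.5 and 15.4 CPM (adjusted p = 0.012). The other chain of the type I receptor, IFNAR1, stood at 24.7 and 31.1 CPM in HEK and 36.9 and 33.7 CPM in Jurkat cells and did not pass the test.

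**Figure D5:**
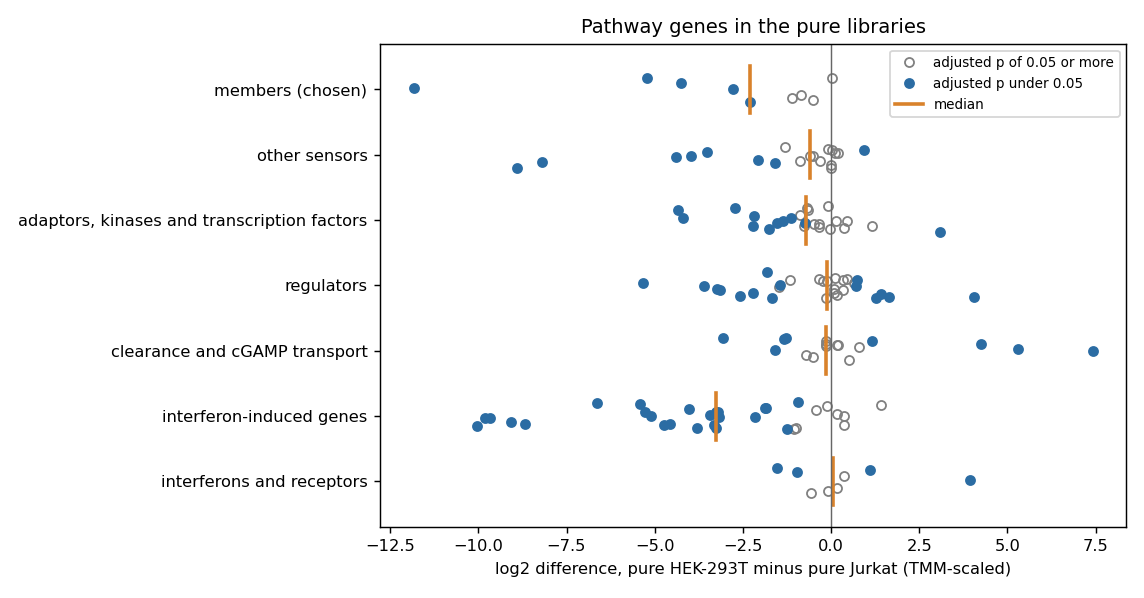
Log2 difference between pure HEK-293T and pure Jurkat libraries for the members and the genes of the 6 lists that were tested, with filled points at an adjusted p under 0.05 and a bar at each median. The median of the interferon-induced genes, -3.26, lies furthest to the left of the 6 lists, and the regulators and clearance genes spread to both sides.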

How the data were processed

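Expression was measured by RNA-seq of oligo(dT)-captured RNA in 14 libraries, 2 for each of 7 mixtures of HEK-293T and Jurkat cells. Per the labels, the authors aligned reads with STAR 2.6.1b and quantified genes with RSEM 1.3.1 on GRCh38. The deposited files hold expected counts, which are estimates and need not be whole, and TPM per gene. A table of the whole series was not used. Expected counts were rounded for tests, and CPM was computed over 58440 gene rows without the 92 spike-in rows. TPM was rescaled likewise. Symbols and coordinates came from GENCODE release 44 (GRCh38), which matched 57754 gene IDs, and the rest held at most 0.327% of counts. The annotation release of the files is not given in the sources used here.

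The members and lists were chosen with earlier results of these data known. Pure HEK and pure Jurkat libraries were compared with edgeR 4.0.16 (TMM, filterByExpr, quasi-likelihood test, Benjamini-Hochberg adjustment over all genes tested, threshold 0.05). Additive mixing was tested with the same model in all 14 libraries, with the expected level as offset (at least 0.2 CPM, genes with a mean of at least 0.5 CPM). HEK RNA shares came from marker genes of at least 5 CPM and 16-fold difference. Levels were extrapolated by non-negative least squares with a jackknife SE. Counting intervals are exact at 95%. Named list genes were the 3 called with the largest difference in each direction and list, with at least 5 CPM in the higher line, and for likeness the 3 genes of highest Pearson correlation, of which some are not reported here. Alternatives were other scalings (spike-in totals among them), no filter, DESeq2 1.42.0 and other estimates of the HEK share. Further ones were the mixed libraries of each file-name stem alone, and leaving out each library. p-values measure only the spread between technical libraries, and intervals cover counting error only.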

Additional observations from a re-analysis of the deposited data

How the results depend on the processing

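Scaling by spike-in totals changed the sign of the log2 difference, HEK minus Jurkat, of 5 members. The values were 0.63 ± 0.58 (SE) for RIGI, 1.11 ± 0.69 for TREX1, 2.45 ± 0.73 for IRF7, 2.69 ± 0.53 for MAVS and 3.04 ± 0.55 for IRF3. RIGI and TREX1 were close to 0 for their SE, so their sign under spike-in scaling is not resolved. The same scaling called 14616 genes higher in HEK and 509 higher in Jurkat, in place of 3825 and 3002, and 94 and 12 list genes in place of 14 and 56. Other scalings, no filter and DESeq2 left these counts within 1.5 times. Leaving out each pure library gave 1769 to 3384 genes higher in HEK and 1362 to 2843 higher in Jurkat, and 3 to 12 and 40 to 55 list genes. Where a line was left with 1 library, it was assumed to vary like the other line.

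Genes off additive mixing numbered 8, and 3 with the HEK share by least squares over all genes, 37 with the share from the percentage and the spike-ins, 4 with TMM library sizes, 16 with no filter, 54 with DESeq2, 1 with the mixed libraries of the Jurkat file-name stem and 0 with those of the other (by edgeR, 814 below and 476 above at an unadjusted p under 0.05). Leaving out each library gave 4 to 71. No member was called under any of these. The log2 difference of IFI16 was -0.17 with the share from the percentage and the spike-ins. It was 5.22 with the least-squares share, which put 3 mixed libraries at 100% HEK RNA. The extrapolated Jurkat level of IFI16 was 556 CPM with the spike-in share (HEK level 23.1 CPM) and 192 CPM with the 4 mixed libraries of the other stem (HEK level 19.7 CPM). It was 396 to 485 CPM when single mixed libraries were left out. The pure HEK libraries held 0.271 CPM on average. The causes were not tested. No paired analysis was possible because the libraries carry no replicate numbers in the labels.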
